A study of Homo sapiens with 3 samples.

Results

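The enzymes that write and remove cytosine methylation on DNA were examined in MTAC-P cells, a human lung cancer line that resists EGFR tyrosine kinase inhibitors and was derived from PC9. The family was taken as 7 genes chosen by name, the DNA methyltransferases DNMT1, DNMT3A and DNMT3B, the maintenance factor UHRF1, and the dioxygenases TET1, TET2 and TET3, out of 26543 genes in the deposited tables. Each gene was found through the RefSeq accessions of its transcripts, and its FPKM values (fragments scaled to transcript length and library size) were summed over them. Cells carrying a short hairpin against BCAT1 (2 libraries, labelled shBCAT1 1 and shBCAT1 2) were compared with cells carrying a control hairpin against luciferase (1 library). All cells were kept in DMEM with fetal bovine serum, and libraries were made from their total RNA. Whether both libraries labelled shBCAT1 carry one hairpin sequence, and whether they are separate cultures, is not stated in the labels, and the study's design text speaks of triplicates while 3 libraries in all were analysed here. The p-values below therefore rest on a spread that may be technical. Of the 7 genes, 6 were above 0 in some library and 2, DNMT1 and UHRF1, reached the mean of 1 FPKM required for the test across genes.

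DNMT1 copies methylation onto the new strand after DNA replication, and UHRF1 binds the half-methylated CpG sites left by replication and brings DNMT1 to them. DNMT3A and DNMT3B set new methylation. The TET enzymes oxidise 5-methylcytosine in steps that lead to its loss, and they need iron and 2-oxoglutarate, the same keto acid that BCAT1 uses as acceptor when it takes the amino group from branched-chain amino acids. In leukaemia cells BCAT1 is known to lower 2-oxoglutarate and thereby TET activity, so the levels of these genes are of interest beside a hairpin against BCAT1.

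The targeted gene did not follow the labels. BCAT1 was at 1.05 FPKM in the library labelled shBCAT1 1 and 0.241 FPKM in the library labelled shBCAT1 2, against 0.213 FPKM in the control, and the bounds around these values, 2 SDs of the estimate on either side, lay apart from the control's in the library labelled shBCAT1 1, in the direction opposite to its label. Directions given here are therefore between libraries as labelled. The BCAT1 value lay on NM_005504 (57.8%) and NM_001178093 (42.2%) in the library labelled shBCAT1 1. Nearly all of it lay on NM_001178091 in the library labelled shBCAT1 2 and on NM_001178093 in the control. The part of this placement in the summed BCAT1 values was not tested. The bounds of genes with 1 entry were as wide as those of a whole number of fragments, within 0.01, in 78.4%, 78.0% and 77.7% of such genes with 5 to 200 fragments in the libraries labelled shBCAT1 1 and shBCAT1 2 and in the control, which allowed depth to be read from them: 1 FPKM on 1 kilobase of transcript corresponded to 14.7 and 15.5 fragments in the libraries labelled shBCAT1 1 and shBCAT1 2, against 14.3 fragments in the control. They cover the estimate within a library and no spread between libraries. The cells carried the epithelial keratins of their label, KRT7 at 262 and 305 FPKM in the libraries labelled shBCAT1 1 and shBCAT1 2, against 320 FPKM in the control, whereas the lung lineage genes NKX2-1, NAPSA and SFTPB were at 0.224 FPKM or less in every library. Of 13 markers of blood, stromal, endothelial, liver and glial cells, summed at 4.04 and 3.98 FPKM in the libraries labelled shBCAT1 1 and shBCAT1 2, against 3.77 FPKM in the control, only CD68, a lysosomal protein gene, was tested, and PTPRC, COL1A2, DCN, LUM and ALB were listed at 0 in every library.

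Promoter sequences of the 2 tested genes are given because both belong to the replication-coupled arm of the family and because the value of UHRF1 was placed on transcripts with different starts in different libraries. The windows run from 250 bases before to 50 bases after a start, are from RefSeq on GRCh38.p14, and have matches to an E2F consensus in capitals. E2F factors drive genes of S phase. The letters searched on both strands were TTTCCCGC, TTTCGCGC, TTTGCCGC and TTTGGCGC, and a match to one overlapped no other in these windows.
DNMT1, chr19:10194904-10195203, minus strand: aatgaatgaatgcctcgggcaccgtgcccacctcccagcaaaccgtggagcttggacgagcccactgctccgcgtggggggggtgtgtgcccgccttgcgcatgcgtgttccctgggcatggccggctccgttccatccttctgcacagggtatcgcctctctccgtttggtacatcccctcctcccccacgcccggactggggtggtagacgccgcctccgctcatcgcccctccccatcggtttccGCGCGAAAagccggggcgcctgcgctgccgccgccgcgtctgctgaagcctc
UHRF1 upstream start, chr19:4909251-4909550, plus strand: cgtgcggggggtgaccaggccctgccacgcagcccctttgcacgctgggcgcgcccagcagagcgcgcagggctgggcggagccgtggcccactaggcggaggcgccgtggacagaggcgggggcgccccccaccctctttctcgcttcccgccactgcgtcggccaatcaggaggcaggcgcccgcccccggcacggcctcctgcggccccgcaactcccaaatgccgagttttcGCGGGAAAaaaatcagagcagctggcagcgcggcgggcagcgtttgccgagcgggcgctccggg
UHRF1 downstream start, chr19:4910117-4910416, plus strand: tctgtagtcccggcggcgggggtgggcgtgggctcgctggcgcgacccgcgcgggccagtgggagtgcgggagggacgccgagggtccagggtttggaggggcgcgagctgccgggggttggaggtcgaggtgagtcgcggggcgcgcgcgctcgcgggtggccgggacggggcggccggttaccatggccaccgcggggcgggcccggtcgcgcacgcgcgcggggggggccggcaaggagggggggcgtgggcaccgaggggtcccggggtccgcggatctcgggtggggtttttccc

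The DNMT1 window held 1 match, which began 2 bases before the start, and the upstream UHRF1 window held 1, which began 14 bases before the start. A UHRF1 window between these (chr19:4909894-4910193) held 1 match 160 bases before its start, and the downstream window held none. Of 35116 windows of the same length over all genes, 3.31% held a match. All 7 genes had at least 1 window, 18 in all, and windows of DNMT3A, DNMT3B, TET1, TET2 and TET3 held none, which says only that these letters are not in those windows. CpG content also differed within the family. The windows shown held 30 CpGs for DNMT1 and 36 and 46 for UHRF1, and those of TET3 held 45 and 33, while the median over all windows was 14. The 3 TET1 windows held 10, 6 and 11, and the single DNMT3B window 3. The RefSeq starts were not always those of the deposited transcripts, which began 126 bases upstream of the window start for DNMT1 and 17467 bases upstream of it for DNMT3B, with 1 DNMT3B transcript at it. The TET3 transcript began 1494 bases downstream of the nearest window start, so the TET3 windows counted above do not lie at its start. The UHRF1 transcript that begins at 4903080 lay 6421 bases upstream of the nearest window start.

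The family was expressed in a steep order that was the same in all 3 libraries: DNMT1, UHRF1, DNMT3A, TET3, DNMT3B, TET2 and TET1. All of these levels are FPKM, which is per length. DNMT1 stood at percentile 88.1, 89.6 and 87.7 of 18836 protein-coding genes in the libraries labelled shBCAT1 1 and shBCAT1 2 and in the control. DNMT3A stood at percentile 74.3, 75.9 and 71.9, and TET3 at 63.0, 57.1 and 60.1. The gap between neighbours was not always larger than their bounds. DNMT1 and UHRF1 had overlapping bounds in all 3 libraries, and so did DNMT3B and TET2. UHRF1 and DNMT3A lay apart in the library labelled shBCAT1 1 only, DNMT3A and TET3 in both libraries labelled shBCAT1 but not in the control, and TET3 and DNMT3B in the library labelled shBCAT1 1 only.

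**Figure D1:**
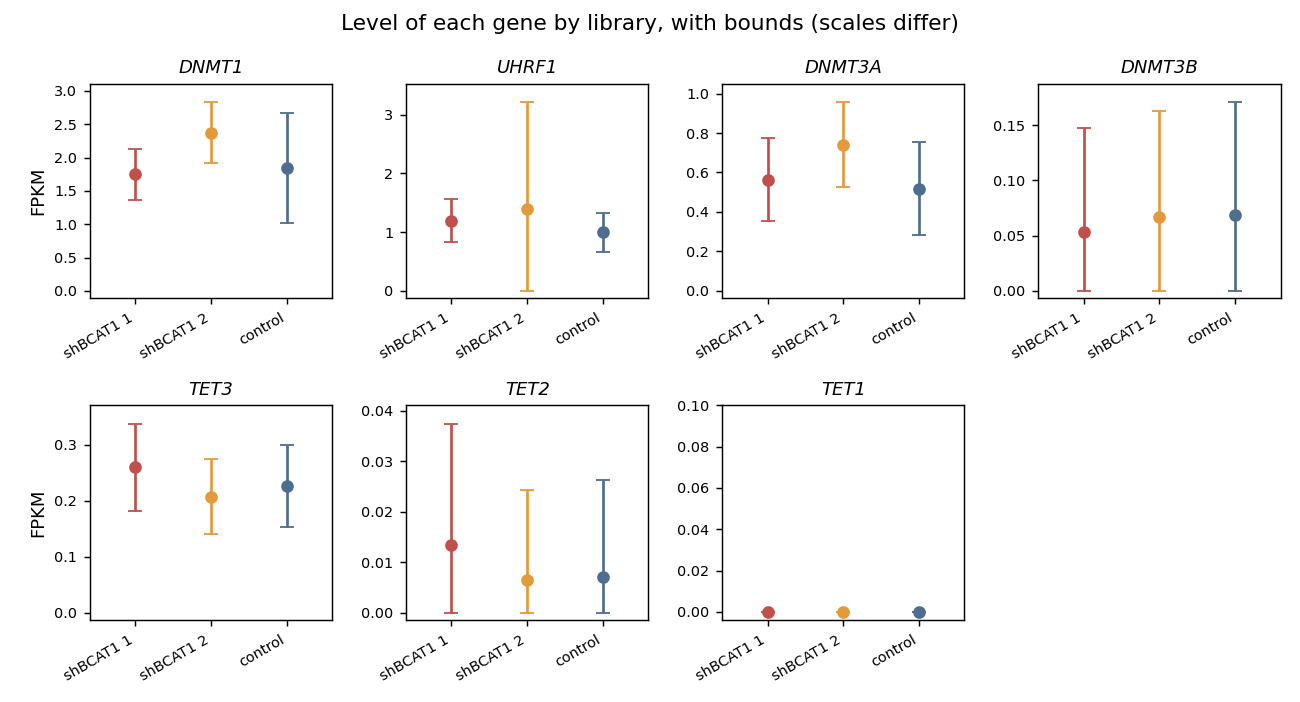
FPKM (y axis, a scale of its own in each panel) of the 7 genes in the libraries labelled shBCAT1 1 and shBCAT1 2 and in the control. Points are the summed value of a gene in 1 library and bars run from the lower to the upper bound; the bars of every gene above 0 overlap between each shBCAT1 library and the control.

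DNMT1, the maintenance methyltransferase (chromosome 19, 10133346 to 10195079, hg38), was the most abundant member. It was at 1.75 FPKM (bounds 1.36 to 2.14) in the library labelled shBCAT1 1 and 2.38 FPKM (1.92 to 2.83) in the library labelled shBCAT1 2, against 1.84 FPKM (1.02 to 2.67) in the control. The control lay between the libraries labelled shBCAT1, and all bounds overlapped. The ratio to the control was 0.947 for the library labelled shBCAT1 1 and 1.29 for that labelled shBCAT1 2. The mean was 2.06 ± 0.44 FPKM (SD, n = 2) in the libraries labelled shBCAT1 and 1.84 FPKM in the control, a log2(FPKM + 1) difference of 0.10 ± 0.22 (SE) with an adjusted p of 0.932 by limma over 3889 genes. Between the libraries labelled shBCAT1 the gap was 2.11 times its estimation SD, and that between the library labelled shBCAT1 2 and the control was 1.13 times its own.

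Both RefSeq transcripts of DNMT1 carried part of this value. The transcript of 40 exons in GENCODE release 29, NM_001379, led in every library, at 0.965 and 1.66 FPKM in the libraries labelled shBCAT1 1 and shBCAT1 2, against 1.64 FPKM in the control. NM_001130823, which has 41 exons, was at 0.782 FPKM (bounds 0.537 to 1.03) and 0.715 FPKM (0.395 to 1.04) in the libraries labelled shBCAT1 1 and shBCAT1 2, against 0.202 FPKM (0 to 0.741) in the control. The form of 41 exons thus held 44.7% and 30.1% of DNMT1 in the libraries labelled shBCAT1 1 and shBCAT1 2, against 10.9% in the control, with overlapping bounds. The 2 transcripts share most of their sequence, so reads can be split between them either way. The bounds of DNMT1 were widest in the control.

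UHRF1 (chromosome 19, 4903080 to 4962154), which reads half-methylated DNA, was at 1.20 FPKM (bounds 0.830 to 1.56) in the library labelled shBCAT1 1 and 1.40 FPKM (0 to 3.21) in the library labelled shBCAT1 2, against 0.997 FPKM (0.660 to 1.33) in the control. Both libraries labelled shBCAT1 were above the control, with overlapping bounds. The mean was 1.30 ± 0.14 FPKM (SD, n = 2) in the libraries labelled shBCAT1 and 0.997 FPKM in the control, a log2(FPKM + 1) difference of 0.20 ± 0.18 (SE) with an adjusted p of 0.841 by limma. It was the larger of the 2 tested differences in the family and did not pass the test.

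The value of UHRF1 lay on transcripts that begin at different places. In the library labelled shBCAT1 1 it lay on NM_001290051, which begins at 4910093, with 0.678 FPKM, and on NM_001048201, which begins at 4909430 near the upstream window shown, with 0.492 FPKM. In the library labelled shBCAT1 2 NM_001048201 held 89.8%, at 1.26 FPKM with bounds of 0 to 2.58. In the control the transcripts that begin at 4910367, the start of the downstream window, led, NM_001290052 with 67.2% and NM_013282 with 17.5%. NM_001290052 was near 0 in both libraries labelled shBCAT1, with upper bounds of 0.0352 and 0.0334 FPKM, against 0.670 FPKM (0.401 to 0.939) in the control. Bounds lay apart from the control's for 3 of the 5 transcripts in the library labelled shBCAT1 1 and for 1 in the other. Such shifts were common: among 2094 tested genes with several transcripts the leading one differed from the control's in 22.8% and 23.5% of cases in the libraries labelled shBCAT1 1 and shBCAT1 2. Of transcripts that reached 0.1 FPKM, 16.1% and 19.2% had bounds apart from the control in these libraries.

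**Figure D2:**
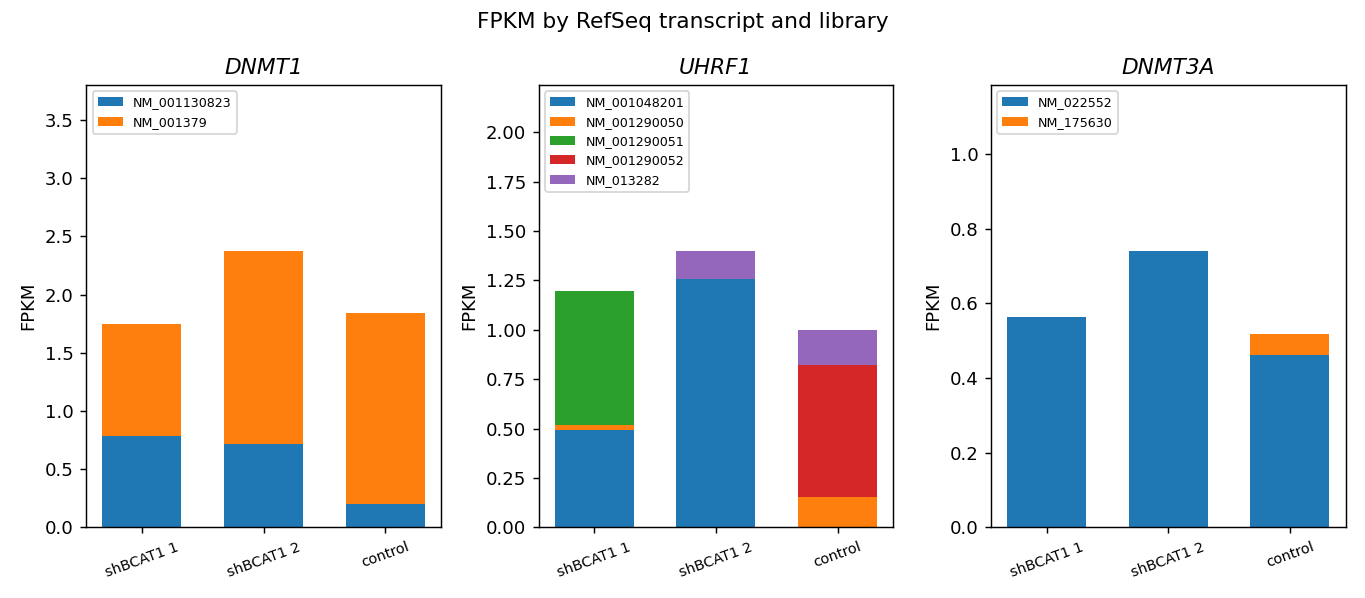
FPKM (y axis, from 0) of DNMT1, UHRF1 and DNMT3A in the libraries labelled shBCAT1 1 and shBCAT1 2 and in the control, with the RefSeq transcripts stacked; transcripts under 0.02 FPKM in every library are not drawn. The height of UHRF1 is 1.20, 1.40 and 0.997 FPKM while its leading transcript is a different one in each library.

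The de novo enzymes were lower than DNMT1. DNMT3A (chromosome 2, 25232961 to 25342590) was at 0.564 FPKM (bounds 0.352 to 0.775) in the library labelled shBCAT1 1 and 0.741 FPKM (0.526 to 0.955) in the library labelled shBCAT1 2, against 0.519 FPKM (0.285 to 0.752) in the control. Both libraries labelled shBCAT1 were above the control with overlapping bounds, and the ratios were 1.09 and 1.43. Its mean was 0.652 ± 0.13 FPKM (SD, n = 2) in the libraries labelled shBCAT1 and 0.519 FPKM in the control, which is under the minimum for the test. In the fit with no minimum, over 16439 genes, the log2(FPKM + 1) difference was 0.12 ± 0.14 (SE) with an adjusted p of 0.863 by limma.

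Most of DNMT3A lay on NM_022552, a full-length transcript of 23 exons, which held 99.999% and 99.96% of the gene in the libraries labelled shBCAT1 1 and shBCAT1 2, against 89.2% in the control, with 0.564 and 0.740 FPKM in the libraries labelled shBCAT1 1 and shBCAT1 2, against 0.463 FPKM in the control. The transcript that begins inside the gene, NM_153759, encodes the shorter enzyme DNMT3A2, a form known from embryonic stem cells and germ cells. It was near 0, with upper bounds of 0.0379 and 0.0361 FPKM in the libraries labelled shBCAT1 1 and shBCAT1 2, against 0.0391 FPKM in the control. The short transcript NM_175630 was read in the control alone, at 0.056 FPKM with a lower bound of 0, which was 10.8% of DNMT3A there.

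DNMT3B (chromosome 20, 32762385 to 32809356) was close to the limit of detection. It was at 0.0529 FPKM in the library labelled shBCAT1 1 and 0.0668 FPKM in the library labelled shBCAT1 2, against 0.0685 FPKM in the control, with lower bounds of 0 throughout. Both were below the control by less than the bounds. The log2(FPKM + 1) difference in the fit with no minimum was -0.01 ± 0.02 (SE), with an adjusted p of 0.891 by limma. The de novo pair together came to 0.353 ± 0.077 and 0.34 ± 0.059 times DNMT1 in the libraries labelled shBCAT1 1 and shBCAT1 2, against 0.318 ± 0.099 times in the control (SD from the bounds). These ratios differed by less than that SD.

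Among the dioxygenases TET3 carried the signal. TET3 (chromosome 2, 73986404 to 74108175) has 1 transcript in the tables, 11388 bases long, and was at 0.260 FPKM (bounds 0.182 to 0.337) in the library labelled shBCAT1 1 and 0.207 FPKM (0.140 to 0.275) in the library labelled shBCAT1 2, against 0.226 FPKM (0.153 to 0.299) in the control. The control lay between them and all bounds overlapped. These bounds are those of 45 and 38 fragments in the libraries labelled shBCAT1 1 and shBCAT1 2, against 38 in the control, so 1 fragment was worth 0.00577 and 0.00546 FPKM in the libraries labelled shBCAT1 1 and shBCAT1 2, against 0.00595 FPKM in the control. The mean was 0.234 ± 0.037 FPKM (SD, n = 2) in the libraries labelled shBCAT1 and 0.226 FPKM in the control, a log2(FPKM + 1) difference of 0.01 ± 0.08 (SE) with an adjusted p of 0.988 by limma with no minimum.

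TET2 (chromosome 4, 105145875 to 105279803) was barely read, at 0.0135 FPKM (upper bound 0.0373) in the library labelled shBCAT1 1 and 0.00637 FPKM (0.0242) in the library labelled shBCAT1 2, against 0.00694 FPKM (0.0263) in the control. Its difference of 0.0043 ± 0.01 (SE) on the log2(FPKM + 1) scale had an adjusted p of 0.925 by limma with no minimum. At this depth a decrease or a small rise could not have been seen. The antisense gene TET2-AS1, which overlaps it, was listed at 0 in the control. TET1 (chromosome 10, 68560360 to 68694482), which is known as the form of embryonic stem cells, was listed at 0 in all 3 libraries, with bounds of 0. TET3 thus held 95.1% and 97.0% of summed TET FPKM in the libraries labelled shBCAT1 1 and shBCAT1 2, against 97.0% in the control. Summed TET FPKM was 0.116 ± 0.02 and 0.0672 ± 0.012 times summed DNMT FPKM in the libraries labelled shBCAT1 1 and shBCAT1 2, against 0.0958 ± 0.023 times in the control (SD from the bounds). That ratio was higher than the control in 1 library labelled shBCAT1 and lower in the other, in both by less than the sum of the SDs of the ratios compared.

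Over the family, 0 of 2 tested members passed an adjusted p of 0.05 by limma. Of the 3889 genes tested 0.360% did (14, all lower), a count not read as a result. With no minimum 0 of 6 members passed, where 0 of 16439 genes did. At an unadjusted p of 0.05, 0 of these 6 passed, beside 1043 of the 16439 genes. Of the 2 tested members 0 had bounds apart from the control in the library labelled shBCAT1 1, beside 9.26% of genes tested (1.65% higher and 7.61% lower), and 0 in the library labelled shBCAT1 2, beside 15.0% (7.33% higher and 7.66% lower). DNMT3A, TET3, DNMT3B and TET2, below the minimum to which those shares apply, also had overlapping bounds, and the lower bounds of DNMT3B and TET2 were 0. UHRF1 and DNMT3A were above the control in both libraries, as were 27.3% of the 16439 genes, and DNMT3B was below it in both, as were 35.2%. DNMT1, UHRF1, DNMT3A and DNMT3B were higher in the library labelled shBCAT1 2 than in the library labelled shBCAT1 1, and TET2 and TET3 were lower. Over genes tested the median of that difference was 0.11 on the log2(FPKM + 1) scale, and 68.0% of genes were higher in the library labelled shBCAT1 2. Transcript length moved with the result as well. The median log2(FPKM + 1) difference from the control was 0.07 for 1005 tested genes with transcripts of 3000 bases or more and -0.06 for all genes tested, and DNMT1 and UHRF1 are of the longer kind, at 5351 and 3393 bases. With the length trend removed their differences were 0.03 and 0.17, with adjusted p of 0.983 and 0.909 by limma.

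**Figure D3:**
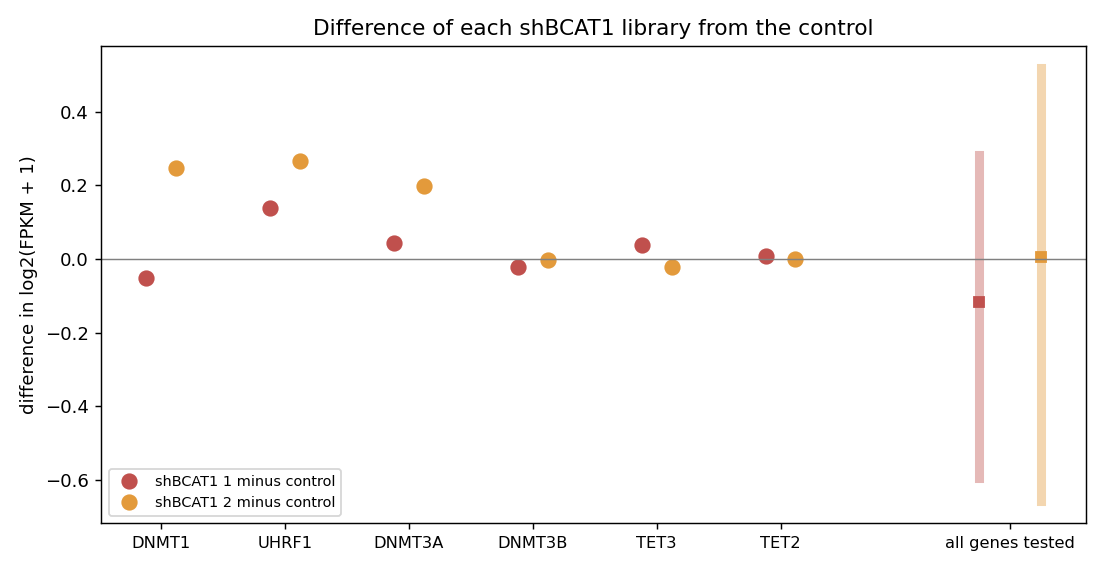
Difference in log2(FPKM + 1) (y axis) of the library labelled shBCAT1 1 and of the library labelled shBCAT1 2 from the control for the 6 genes above 0, with the median (square) and the 5th to 95th percentile (bar) over all 3889 genes tested at the right. The points of all 6 genes lie inside the bars, and low genes sit near 0 on this scale by construction.

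Among the genes whose levels over the 3 libraries lay closest to those of DNMT1 were RDH11, MAPRE1, DAXX and SIRT6, at Euclidean distances of 0.037 to 0.056 on the log2(FPKM + 1) scale among 3626 protein-coding genes. The likeness rests on 3 points. RDH11, a retinol dehydrogenase, was at 1.77 and 2.32 FPKM in the libraries labelled shBCAT1 1 and shBCAT1 2, against 1.90 FPKM in the control.

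Genes that work with the family were read from 9 lists around DNA methylation, which with the family hold 160 genes, 51 of them tested. None passed an adjusted p of 0.05 by limma in either direction, the smallest being 0.797, and 1, ALKBH2, had an unadjusted p under 0.05, beside 5.61% of genes tested. Their median log2(FPKM + 1) difference was 0.02, beside -0.06 for all genes tested. Bounds lay apart from the control for 0 of the 51 in the library labelled shBCAT1 1 and for 3 in the library labelled shBCAT1 2, among them ALKBH5 (higher) and FEN1 (lower). Listed genes under the minimum are outside this count. Among them POLB was at 0.0570 and 0.647 FPKM in the libraries labelled shBCAT1 1 and shBCAT1 2, against 0.588 FPKM in the control. Its bounds lay apart in the library labelled shBCAT1 1. Those of GPT2 and PLOD1, both higher, lay apart in the library labelled shBCAT1 2.

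Among maintenance factors 2 of 10 were tested. PCNA, the clamp that holds DNMT1 at the replication fork, was at 3.87 and 5.85 FPKM in the libraries labelled shBCAT1 1 and shBCAT1 2, against 5.78 FPKM in the control. LIG1, the ligase of lagging-strand synthesis and a partner of UHRF1, was at 1.52 and 1.94 FPKM, against 1.51 FPKM in the control. HELLS, a chromatin remodeller needed for methylation, was at 0.384 and 0.406 FPKM in the libraries labelled shBCAT1 1 and shBCAT1 2, against 0.534 FPKM in the control, and was not tested. DNMT3L, the inactive partner of the de novo enzymes in germ cells, was listed at 0 in every library. Of 12 TET partners and regulators of TET or DNMT3 0 reached the minimum. OGT, the GlcNAc transferase that binds TET2 and TET3, was at 0.590 and 0.752 FPKM in the libraries labelled shBCAT1 1 and shBCAT1 2, against 0.504 FPKM in the control.

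Base excision enzymes that finish demethylation after TET oxidation had 6 of 15 tested, with a median difference of -0.01 on the log2(FPKM + 1) scale. TDG, the glycosylase that removes the oxidised bases, was at 0.743 and 0.482 FPKM in the libraries labelled shBCAT1 1 and shBCAT1 2, against 0.634 FPKM in the control. APEX1, the endonuclease of the next step, was at 3.63 and 3.55 FPKM, against 5.13 FPKM in the control, a log2(FPKM + 1) difference of -0.42 ± 0.19 (SE), and XRCC1, the scaffold of the repair, was at 1.31 and 1.61 FPKM, against 0.910 FPKM in the control, a difference of 0.36 ± 0.19 (SE). Both had an adjusted p of 0.797 by limma. Methyl-CpG binding proteins and their relatives, not all of them readers of methylated CpG, had 4 of 10 tested and a median of 0.13. MBD2, which reads methylated CpG, was at 1.74 and 2.38 FPKM in the libraries labelled shBCAT1 1 and shBCAT1 2, against 1.67 FPKM in the control, and MBD3 of the NuRD complex, the most abundant of the list, was at 6.84 and 8.01 FPKM, against 8.87 FPKM in the control.

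**Figure D4:**
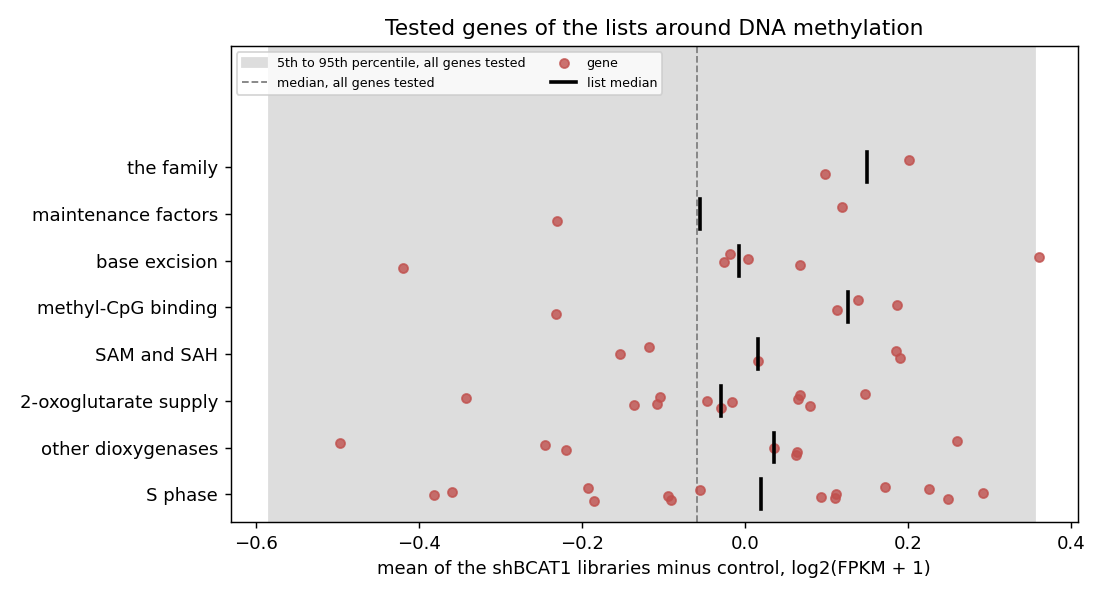
Mean of the libraries labelled shBCAT1 minus the control in log2(FPKM + 1) (x axis) for the tested genes of 8 lists (rows), with each list's median as a black bar. The 5th to 95th percentile and the median of all genes tested are in grey. List medians lie between -0.06 and 0.15, and 0 of the genes drawn passed the test.

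The supply of the methyl donor and of the TET co-substrate was read at the same level. For S-adenosylmethionine (SAM) 5 of 14 genes were tested, with a median of 0.02. MAT2A, the enzyme that makes SAM, was at 1.36 and 1.85 FPKM in the libraries labelled shBCAT1 1 and shBCAT1 2, against 1.28 FPKM in the control, and AHCY, which clears its by-product, was at 3.91 and 4.98 FPKM, against 5.03 FPKM in the control. Genes of 2-oxoglutarate supply and 2-hydroxyglutarate removal, among them the later citrate cycle enzymes SDHA, SDHB and FH, which act on succinate and fumarate, had 11 of 18 tested and a median of -0.03, with 4 of the 11 below the control in both libraries and 0 above it in both, beside 43.7% and 25.6% of genes tested. IDH1, the cytosolic isocitrate dehydrogenase, was at 0.501 and 0.895 FPKM in the libraries labelled shBCAT1 1 and shBCAT1 2, against 1.09 FPKM in the control, and was not tested. IDH2, its mitochondrial counterpart, was at 1.00 and 1.73 FPKM, against 1.23 FPKM in the control. SLC25A11, the mitochondrial carrier of 2-oxoglutarate, was at 1.52 and 1.29 FPKM, against 2.04 FPKM in the control, a difference of -0.34 ± 0.18 (SE) with an adjusted p of 0.804 by limma. Other 2-oxoglutarate dioxygenases and their partners had 7 of 19 tested and a median of 0.04. ALKBH2, a DNA repair demethylase, was at 1.21 and 1.34 FPKM in the libraries labelled shBCAT1 1 and shBCAT1 2, against 2.20 FPKM in the control, a log2(FPKM + 1) difference of -0.50 ± 0.18 (SE) with an adjusted p of 0.797 by limma.

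Germline genes that promoter methylation keeps silent in somatic cells were almost unread. Of 29 such genes 19 were listed at 0 in all 3 libraries, among them DAZL, DDX4, MAEL and SYCP3, and 3 reached 0.1 FPKM in any library. Zeros were common in the tables: of 26543 genes, 16439 were above 0 in some library with an OK status. The part of promoter methylation in the zeros of this list was not tested. MAGEA3, which shares sequence with other MAGEA genes and is uncertain for that reason, was the highest, at 0.806 and 1.08 FPKM in the libraries labelled shBCAT1 1 and shBCAT1 2, against 1.07 FPKM in the control. S phase genes, given because DNMT1 and UHRF1 are expressed with them in dividing cells, had 14 of 27 tested and a median of 0.02. Of these 14, 5 were above and 7 below the control in both libraries, beside 25.6% and 43.7% of genes tested. TK1 and MCM7, the most abundant of the list, were below it in both. TK1 was at 7.60 and 9.20 FPKM in the libraries labelled shBCAT1 1 and shBCAT1 2, against 9.65 FPKM in the control. E2F1 was at 1.73 and 1.78 FPKM in the libraries labelled shBCAT1 1 and shBCAT1 2, against 1.25 FPKM in the control, and MCM2, a subunit of the replicative helicase, was at 2.18 and 2.92 FPKM, against 2.31 FPKM in the control. The part of cell division in the values of DNMT1 and UHRF1 was not tested.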

How the data were processed

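RNA-seq libraries of MTAC-P cells (2 labelled shBCAT1, 1 control) were grouped by the knockdown label. The FPKM values and their bounds were deposited by the authors, 1 table per library with 56882 entries for 50337 RefSeq transcripts; Trim Galore, TopHat, Cufflinks and the build hg38 are named in the submitters' processing notes, and their versions, settings, strand and annotation were not given in the sources used here. A RefSeq table on GRCh38.p14 named 49277 accessions and GENCODE release 29 another 649, and 411 kept their accession. Values were summed per gene over all entries, and 341 genes with a status other than OK were left out. Bounds of sums are root sums of squares over entries, which ignores that transcripts of a gene trade reads. Loci are given 1-based from the deposited tables.

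limma 3.58.1 (R 4.3.3) with an intensity trend was fitted to log2(FPKM + 1) of genes whose 3 libraries averaged 1 FPKM or more, with Benjamini-Hochberg adjustment over all genes tested, two-sided; this scale understates changes of low genes. With a single control, the variance rests on the shBCAT1 pair (residual degrees of freedom 1, prior 2.99). Members under the minimum were taken from a fit with none. Simulated data drew their spread from differences between the libraries labelled shBCAT1, shuffled over genes with random sign. On these data the median estimate of the fit lay near the change put in. Those changes were far larger than the differences of the members, and smaller ones were not simulated. With none put in the fit still called more genes than the 14 called here. The shuffling broke the tie of spread to gene and level, so the simulation cannot settle what those 14 are. The count of 14 is not read as a result. Tables, motif searches and plots used Python 3.11.15 with numpy 2.4.6, pandas 2.3.3 and matplotlib 3.10.9. Genes named are the 7 members, BCAT1, and listed genes by mean FPKM, with others added after their values were seen; the family and lists were chosen with earlier results of these data known, and the removal of the length trend was added after the data had been seen. Some listed genes are not reported here. The alternatives are given in the closing section.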

Additional observations from a re-analysis of the deposited data

How the results depend on the processing

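In 56 combinations of 6 genes and the alternatives run, no member passed an adjusted p of 0.05 by limma, the smallest being 0.416, and 51 kept their direction. The 5 that reversed were DNMT1 with transcripts kept apart (-0.21), DNMT3B with transcripts kept apart (0.084), TET2 with quantile normalization (-0.00031) and, with the length trend removed, TET2 (-0.023) and TET3 (-0.020), all log2(FPKM + 1) differences. With transcripts kept apart a gene is read from the transcript with the highest mean over the 3 libraries. For UHRF1 this was NM_001048201, near 0 in the control, with a difference of 0.88 (adjusted p 0.925 by limma), against 0.20 summed. NM_001290052, the control's leading transcript, was near 0 in both libraries labelled shBCAT1, so the direction rests on the transcript taken. For DNMT1 it was the form of 40 exons, at 0.965 and 1.66 FPKM in the libraries labelled shBCAT1 1 and shBCAT1 2, against 1.64 FPKM in the control. For DNMT3B it was the form of 18 exons, at 0.0529 and 0.0668 FPKM in these libraries and near 0 in the control. These 2 reversals thus also rest on the transcript taken. The cause of the TET2 and TET3 reversals was not tested. Leaving out either library labelled shBCAT1 leaves 1 library a group and a value with no test. These values ran from -0.051 to 0.25 for DNMT1, 0.14 to 0.26 for UHRF1, 0.042 to 0.20 for DNMT3A, -0.021 to -0.0023 for DNMT3B, -0.022 to 0.039 for TET3 and -0.00082 to 0.0093 for TET2. Leaving out the control leaves no comparison. The 14 genes that passed over the whole table were 0 with transcripts kept apart, 1 without loci under 300 bases, 8 at a mean of at least 5 FPKM and 0 with no minimum; the listed genes that passed were 0 in each. At a minimum of 5 FPKM no member was left. No paired analysis was possible because the single control carries no replicate number in the labels. TET1, TET2 and DNMT3B were too low for a decrease or a small rise to be seen at this depth, and no rise beyond the bounds was read.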
